A study of Mus musculus with 12 samples.

Results

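The comparison described here set brainstem progenitors infected with *ACVR1* R206H and H3.1K27M against progenitors infected with *ACVR1* WT and H3.1K27M. Its members were chosen by their labels alone, as the 3 samples of each of these groups, or 6 of the 12 RNAseq samples of the series. Cells came from the brainstem of C57BL/6 pups (Nestin TVA, p53 floxed) at postnatal days 3 to 5 by the labels, grew as neurospheres with EGF and FGF2, and received RCAS vectors. Infection by RCAS needs the Tv-a receptor, which the nestin promoter drives in these mice, so that uninfected cells can remain in each culture. Both groups carried the p53 floxed alleles and the H3.1K27M vector, and the labels name no Cre virus for these cells. They differed in the *ACVR1* vector, which carried the human gene. The other 6 samples had *ACVR1* WT or R206H without H3.1K27M and are used for the difference between the backgrounds, for the check of the vector genes and in an alternative fit of all 12 samples. The labels do not say whether samples came from separate cultures or litters, so that p values measure the spread between these samples, which may be technical.

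ACVR1 is a type I receptor for bone morphogenetic proteins (BMPs). Ligand-bound type I and type II receptors phosphorylate SMAD1, SMAD5 and SMAD9, which join SMAD4 in the nucleus and raise the ID genes and a set of inhibitors, among them SMAD6, SMAD7 and Noggin, that dampen the pathway. In neural progenitors BMP signaling is known to favor astrocytes over oligodendrocytes. The R206H change lies next to the kinase domain, makes the receptor overactive, and occurs in diffuse intrinsic pontine glioma together with H3.1K27M, a histone mutation that lowers methylation of H3 lysine 27.

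The 6 libraries held 20828944 to 26456257 counts. Some progenitor genes were high in all of them. *Vim*, an intermediate filament gene, had at least 1794 counts per 1000000 (CPM, scaled by the trimmed mean of M values, TMM). *Nes* had at least 267 CPM and *Sox2* at least 212. Other listed progenitor genes were low, such as *Prom1* and *Fut4*, with means of 11.5 and 1.20 CPM. Genes listed for other lineages were also high, such as *Apoe* and *Olig1*, with means of 4251 and 2438 CPM. The 14 microglia and macrophage genes together had 4.77 to 7.16 CPM with *ACVR1* WT and 5.39 to 7.33 with R206H. This sum and each later list sum are CPM of the library total. *Xist* (487 to 721 CPM) and the Y-linked *Ddx3y* (33.8 to 41.0 CPM) were both counted in every one of the 6 libraries, here as CPM of the library total. Genes with a count numbered 23840 to 25207 in R206H libraries and 23154 to 23961 in *ACVR1* WT libraries, which overlap, and the 439 processed pseudogenes tested had a median log2 fold change of 0.41 against 0.00 over all genes, with 73 called higher and 4 lower. The part of library content in the changes of low genes was not tested.

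Of 15672 genes tested, 3185 (20.3%) passed an adjusted p of 0.05 (edgeR's quasi-likelihood test, Benjamini-Hochberg adjustment). With R206H, 1783 genes (11.4%) were higher and 1402 (8.95%) lower. The rises were larger than the falls. Among genes called, 273 rose by at least 1 on the log2 scale and 34 fell by as much, and 52 rose by at least 2 while 1 fell by as much. The median change was 0.40 for genes called higher and -0.26 for genes called lower, and 85.5% of the falls were smaller than 0.5. The groups did not overlap in 97.2% of the genes called, a share that largely follows from the call and is no separate support. Small changes could be called because replicates lay close together, with a biological coefficient of variation of 0.048.

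**Figure D1:**
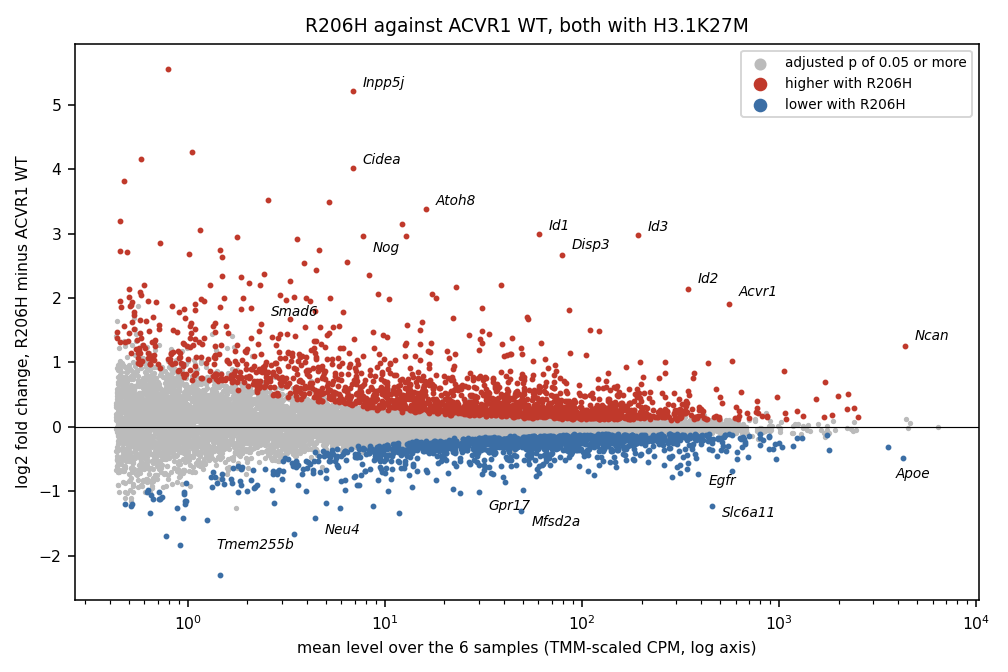
Log2 fold change of every gene tested (R206H minus *ACVR1* WT, both with H3.1K27M) against its mean TMM-scaled CPM over the 6 samples on a log axis, with 1783 genes called higher in red and 1402 called lower in blue. Rises reach above 5 while a single called gene lies below -2.

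The vector genes were examined first, since they bear on every result below. Reads from human *ACVR1* can reach the mouse counts only where they align to mouse *Acvr1*. *Acvr1* (chromosome 2) had 171, 163 and 368 CPM in the *ACVR1* WT samples and 1011, 568 and 1072 CPM in the R206H samples. All 3 R206H samples lay above all 3 WT samples, and replicate 3 of the WT group stood above the other WT samples. This was a log2 rise of 1.91 with a standard error of 0.28 and an adjusted p of 0.00045 (edgeR's test). In the samples without H3.1K27M *Acvr1* had a mean of 49.9 (SD 3.69, n = 3) CPM of the library total with *ACVR1* WT and 93.8 (SD 17.2, n = 3) with R206H.

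The H3.1 genes *Hist1h3a*, *Hist1h3b* and *Hist1h3i* gave a second reading of the vectors. Each had 0 to 4 counts in every library without the H3.1K27M vector, which matches the labels, since libraries with the vector had 89 or more. *Hist1h3a* had 26.4, 16.3 and 12.1 CPM with *ACVR1* WT and 51.2, 41.0 and 56.1 CPM with R206H. *Hist1h3b* rose by 2.06 on the log2 scale (standard error 0.20, adjusted p = 1.7e-05), *Hist1h3i* by 1.47 (adjusted p = 1.5e-05) and *Hist1h3a* by 1.44 (adjusted p = 0.00026, edgeR's test for all). Thus reads of both vectors were higher in the R206H group. Within the WT group they did not go together, since replicate 3 was highest for *Acvr1* and lowest for the 3 histone genes. These H3.1 genes are near-identical copies, and reads that matched several of them were left out by the authors, so that how reads divide among them is uncertain. The amount of either vector and the R206H change cannot be told apart in this comparison.

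**Figure D2:**
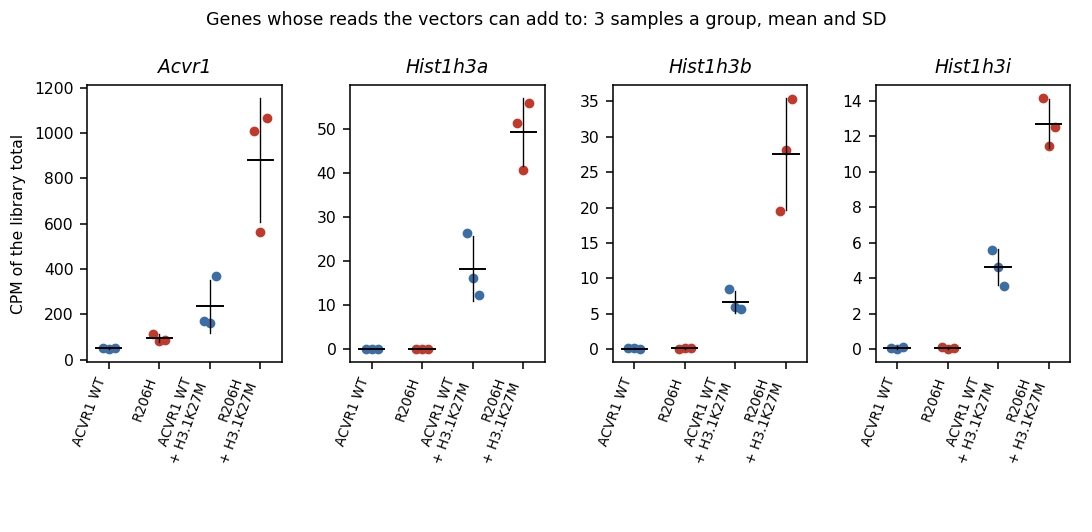
CPM of the library total for *Acvr1* and 3 H3.1 genes in the 4 groups, with points for samples, a horizontal line for the mean and a vertical line for the SD (n = 3). The R206H samples with H3.1K27M are highest in each panel, and the histone genes lie near 0 without H3.1K27M.

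All 4 *Id* genes, which encode inhibitors of basic helix-loop-helix factors, rose. *Id1* had 13.7, 12.5 and 13.9 CPM with *ACVR1* WT and 104, 97.4 and 119 CPM with R206H. *Id3* went from 39.1 to 46.5 CPM up to 307 to 375 CPM, and *Id2* from 123 to 130 CPM up to 516 to 614 CPM. The groups were far apart for each. Log2 fold changes were 2.99 (standard error 0.08) for *Id1*, 2.99 (0.08) for *Id3*, 2.15 (0.06) for *Id2* and 1.84 (0.09) for *Id4*, with adjusted p values of 2.8e-10 for the first 3 and 4.6e-08 for *Id4* (edgeR's test). Replicate 3 of the WT group, the WT sample with the most *Acvr1*, had the lowest *Id3* and *Id4* of its group and the highest *Id1* and *Id2*.

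Of 16 SMADs and intracellular feedback genes, 7 rose (43.8%) and none fell. Over all genes tested the shares were 11.4% higher and 8.95% lower, against which this and each later list count is set. The inhibitory SMAD *Smad6* had 1.36, 1.44 and 1.32 CPM with *ACVR1* WT and 5.23, 5.42 and 6.03 CPM with R206H, which is 2.02 higher on the log2 scale (standard error 0.15, adjusted p = 1.8e-06, edgeR's test). *Smad7*, the other inhibitory SMAD, rose from 4.55 to 5.12 CPM to 9.60 to 11.5 CPM (log2 fold change 1.11). The decoy receptor gene *Bambi* rose by 0.91, *Ski* by 0.46, *Tob1* by 0.21 and the ubiquitin ligase gene *Smurf1* by 0.15. The receptor SMADs split: *Smad9* rose from 10.3 to 10.5 CPM to 31.8 to 35.6 CPM (log2 fold change 1.70, standard error 0.07, adjusted p = 1.2e-08), whereas *Smad1* (0.09) and *Smad5* (-0.10), which have the same role, and the common partner *Smad4* (-0.04) did not pass the test.

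Of 12 extracellular antagonists tested, 6 rose (50%, against 11.4% of all genes) and none fell. *Nog*, which encodes Noggin, a protein that binds and blocks BMPs, had 1.98, 1.73 and 1.56 CPM with *ACVR1* WT and 11.9, 11.1 and 17.8 CPM with R206H (log2 fold change 2.96, standard error 0.21, adjusted p = 1.1e-06, edgeR's test). *Fst*, the activin antagonist follistatin, rose by 1.06, *Nbl1* by 0.68, and *Chrdl1*, *Bmper* and *Fstl1* by 0.20 to 0.23. *Twsg1*, at 106 to 116 CPM in all 6 samples, had a log2 fold change of 0.03 and did not pass. The other 6 of 18 listed antagonists had too few counts to be tested.

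Receptors and ligands moved less uniformly. Of 14 receptors tested, *Acvr1*, *Bmpr1a*, *Rgma* and *Bmpr1b* rose and none fell. Vector reads can add to the *Acvr1* counts, so that its rise is not read as a change of the mouse gene. *Bmpr1a*, another BMP type I receptor, had 282, 287 and 303 CPM with *ACVR1* WT and 579, 542 and 610 CPM with R206H (log2 fold change 0.99, standard error 0.05, adjusted p = 4.6e-08, edgeR's test). The type II receptor gene *Bmpr2* had 221 to 280 CPM with *ACVR1* WT and 251 to 296 CPM with R206H, which overlap. Of 13 ligands tested, 5 rose (*Gdf10*, *Inhba*, *Tgfb2*, *Tgfb3* and *Gdf11*) and 3 fell. *Bmp7* went from 54.9 to 56.5 CPM to 33.4 to 40.2 CPM (log2 fold change -0.60), *Bmp3* fell by 1.26 and *Inhbb* by 0.33 on the log2 scale. *Bmp4*, *Bmp5* and the other 8 untested ligands of 23 listed had a mean under 10 counts.

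Genes described elsewhere as BMP targets went both ways. Of 12 tested, 5 rose and 3 fell. The basic helix-loop-helix gene *Atoh8* had 2.76, 2.73 and 2.96 CPM with *ACVR1* WT and 28.7, 25.5 and 33.8 CPM with R206H (log2 fold change 3.38, standard error 0.12, adjusted p = 6.9e-09, edgeR's test). *Junb* rose by 1.18, *Gata3* by 0.69, *Msx1* by 0.62 and *Hey1* by 0.39. *Alpl*, alkaline phosphatase, fell from 39.1 to 43.1 CPM to 24.9 to 29.2 CPM (log2 fold change -0.62), and *Tmem100* (-0.31) and *Heyl* (-1.13) were also called lower. *Heyl* had at most 1.16 CPM, and its call was lost in 5 of the 6 fits that left out 1 sample and under DESeq2 (adjusted p = 0.10). *Hes1*, at 27.5 to 29.4 CPM with *ACVR1* WT and 22.6 to 25.8 CPM with R206H, had an adjusted p of 0.054.

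**Figure D3:**
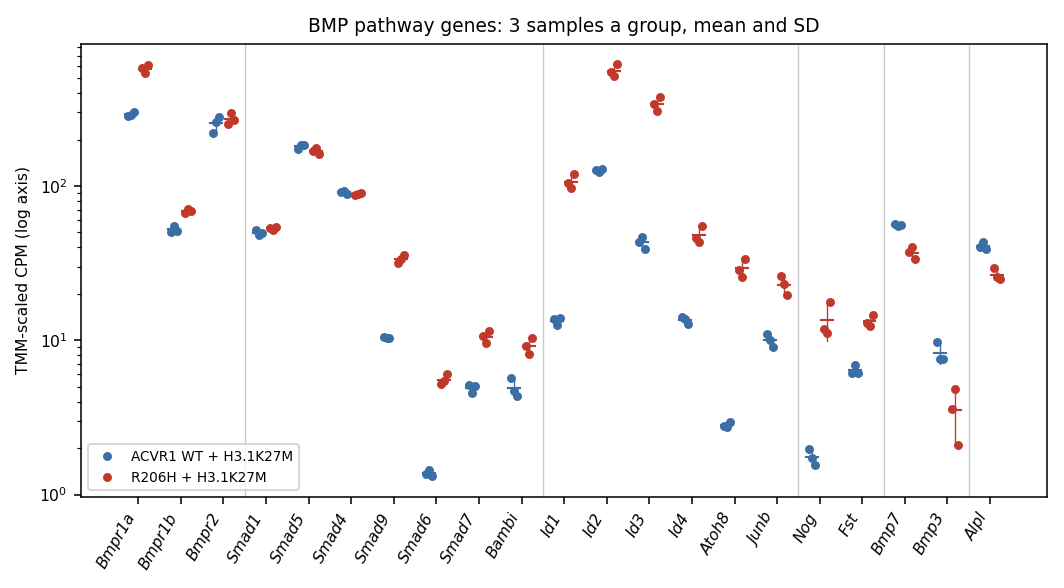
TMM-scaled CPM on a log axis for 21 BMP pathway genes in each sample, ordered as receptors, SMADs and feedback genes, targets, antagonists, ligands and *Alpl*, with blue for *ACVR1* WT and red for R206H, both with H3.1K27M. Horizontal marks are means and vertical lines SDs (n = 3). Groups overlap for *Bmpr2*, *Smad4* and *Smad5*, and the *Id*, *Smad6*, *Smad7*, *Smad9* and *Nog* points are well apart.

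Sequences around the start sites of the rising pathway genes are given because these genes moved together. Of the 9 SMAD, target and *Id* genes called higher by at least 1, 7 had a promoter of 300 bases in RefSeq (GRCm38.p6, 250 bases before to 50 after the start). Each was searched on both strands for GGCGCC, the GC-rich element bound by BMP SMADs, and for CAGAC, a SMAD box with its flank, motifs that share no overlap with each other. The 4 promoters with a match are printed 5′ to 3′ on the strand of the gene, with the matches in capitals.
Id2, chr12:25096043-25096342, minus strand: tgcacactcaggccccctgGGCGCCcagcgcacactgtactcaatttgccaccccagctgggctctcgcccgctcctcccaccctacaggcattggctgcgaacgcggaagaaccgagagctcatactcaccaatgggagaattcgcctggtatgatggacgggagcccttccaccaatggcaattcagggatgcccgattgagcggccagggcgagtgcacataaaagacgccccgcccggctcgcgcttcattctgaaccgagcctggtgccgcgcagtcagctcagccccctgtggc
Id3, chr4:136143572-136143871, plus strand: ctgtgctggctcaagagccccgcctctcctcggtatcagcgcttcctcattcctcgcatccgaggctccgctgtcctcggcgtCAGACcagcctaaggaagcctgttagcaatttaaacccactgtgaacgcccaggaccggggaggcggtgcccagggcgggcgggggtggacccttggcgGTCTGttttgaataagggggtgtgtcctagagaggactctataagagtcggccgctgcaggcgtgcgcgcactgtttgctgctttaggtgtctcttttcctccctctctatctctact
Id4, chr13:48260866-48261165, plus strand: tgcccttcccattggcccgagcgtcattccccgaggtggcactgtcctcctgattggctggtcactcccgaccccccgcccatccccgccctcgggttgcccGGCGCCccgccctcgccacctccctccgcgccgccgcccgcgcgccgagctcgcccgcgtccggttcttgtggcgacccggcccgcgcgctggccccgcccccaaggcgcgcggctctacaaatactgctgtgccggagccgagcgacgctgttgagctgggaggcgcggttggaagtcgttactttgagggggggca
Smad9, chr3:54755332-54755631, plus strand: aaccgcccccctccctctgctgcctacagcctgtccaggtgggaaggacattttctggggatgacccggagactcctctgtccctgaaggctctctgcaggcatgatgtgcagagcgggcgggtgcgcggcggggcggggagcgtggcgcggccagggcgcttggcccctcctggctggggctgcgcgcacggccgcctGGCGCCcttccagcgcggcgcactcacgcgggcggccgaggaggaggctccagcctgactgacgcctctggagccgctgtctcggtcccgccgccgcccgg

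*Id2*, *Id4* and *Smad9* held GGCGCC once each and *Id3* held CAGAC at 2 places. The promoters of *Smad6*, *Atoh8* and *Junb* held neither within this window. Over all 31 BMP pathway genes called higher, 22 had promoters, 24 in number, of which 8 (33.3%) held GGCGCC and 9 (37.5%) CAGAC. The same motifs occurred in 20.8% and 47.7% of the 14518 promoters of genes tested, and in 11.9% and 49.6% of all 32851 promoters. Among the 1399 promoters of genes called lower, 20.9% held GGCGCC. A match is a stretch of letters and shows no binding.

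Across all genes, the 15 largest rises among genes with at least 5 CPM in the higher group were led by *Inpp5j*, a phosphoinositide 5-phosphatase gene on chromosome 11. It had 0.619, 0.288 and 0.160 CPM with *ACVR1* WT and 11.6, 10.8 and 17.9 CPM with R206H, which is 5.22 higher on the log2 scale (standard error 0.32, adjusted p = 3.9e-07, edgeR's test). *Pla2g3*, a secreted phospholipase A2 gene, rose by 2.44 and overlaps *Inpp5j* by 4976 bases on the opposite strand. Because counting ignored strand, reads in the shared stretch cannot be given to one of them, and those that fit both were left out.

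*Cidea*, a lipid droplet gene, rose from 0.660 to 0.919 CPM to 10.9 to 16.1 CPM (log2 fold change 4.02). *Caln1*, a neuronal calcium-binding protein gene, rose by 3.49, *Stum* by 3.15, *Stmn2*, a neuronal microtubule regulator, by 2.93 and the serotonin receptor gene *Htr1b* by 2.27. *Disp3*, a gene of the dispatched family with a sterol-sensing domain, had 20.3, 24.6 and 19.9 CPM with *ACVR1* WT and 133, 124 and 154 CPM with R206H (log2 fold change 2.67, standard error 0.09, adjusted p = 3.1e-09, edgeR's test). *Wif1*, a secreted Wnt inhibitor, rose by 2.97, the potassium channel gene *Kcnk13* by 2.35 and *Fam196b* by 2.54. Every one of the 15, which include *Id1*, *Id3*, *Nog* and *Atoh8*, kept its call in each alternative fit that tested it. *Inpp5j* was not tested where 10 counts were required in every sample.

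The 15 largest falls were smaller, between -1.66 and -0.97. *Tmem255b* fell most, from 6.81, 4.98 and 3.83 CPM with *ACVR1* WT to 2.21, 1.47 and 1.33 CPM with R206H. It overlaps *Gas6*, a gene with far more reads, by 3100 bases. *Slc6a11*, which encodes the GABA transporter GAT-3, fell from 631, 687 and 593 CPM to 273, 316 and 231 CPM (log2 fold change -1.22, standard error 0.09, adjusted p = 1.7e-06, edgeR's test), and *Mfsd2a*, a transporter of lysophosphatidylcholine that carries docosahexaenoic acid, from 58.9 to 78.6 CPM to 27.3 to 28.9 CPM (log2 fold change -1.31).

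The other falls included enzymes and secreted proteins. *Hsd11b1*, which regenerates active glucocorticoid, fell by 0.99 on the log2 scale, *Gfpt2*, of the hexosamine pathway, by 1.02, the peroxidase gene *Lpo* by 0.98 and *Ptgds*, prostaglandin D2 synthase, by 0.97. The peptide hormone gene *Adm*, adrenomedullin, went from 11.4 to 12.8 CPM to 4.66 to 5.60 CPM (log2 fold change -1.23). The claudin gene *Cldn10*, the synaptic genes *Rph3a* and *Camk2a*, the Notch feedback gene *Nrarp*, *Bmp3*, *Neu4* and *Gpr17* made up the rest. *Neu4*, *Bmp3*, *Gpr17*, *Cldn10* and *Lpo* kept their direction but lost their call when all 12 samples were fitted together.

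Genes of oligodendrocyte precursors were mostly lower: 11 of 18 tested were called lower against 8.95% of all genes, 1 was called higher, and the median log2 fold change was -0.21 against 0.00. *Neu4*, a sialidase gene of this lineage, had 6.85, 6.33 and 6.19 CPM with *ACVR1* WT and 2.31, 2.22 and 2.65 CPM with R206H (log2 fold change -1.42, standard error 0.13, adjusted p = 1.0e-05, edgeR's test). *Gpr17*, a receptor of committed precursors, went from 39.9, 46.0 and 34.0 CPM to 23.58, 19.86 and 15.996 CPM. The fate regulator *Sox10* fell by 0.47, the growth factor receptor gene *Pdgfra* by 0.42, *Cspg4*, which encodes NG2, by 0.37 and *Olig2* by 0.21. *Olig1* had 2212 to 2732 CPM with *ACVR1* WT and 2299 to 2464 CPM with R206H and did not pass, and *Nkx6-2* rose by 0.90.

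Of 18 myelin and mature oligodendrocyte genes tested, 8 fell (44.4%, against 8.95% of all genes) and *Nfasc* rose. *Mbp*, myelin basic protein, went from 77.0, 69.8 and 84.6 CPM to 52.3, 59.3 and 48.6 CPM (log2 fold change -0.53, adjusted p = 0.00041, edgeR's test), and *Enpp6* fell by 0.91. Fewer cells of this lineage and less RNA per cell cannot be told apart in these bulk samples. No gene of either list was called lower when all 12 samples shared 1 fit, and without R206H replicate 3 the count of myelin genes called lower was 5.

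Astrocyte genes divided evenly, with 9 of 29 higher and 9 lower. The water channel gene *Aqp4* had 727, 777 and 734 CPM with *ACVR1* WT and 1344, 1351 and 1376 CPM with R206H (log2 fold change 0.86, standard error 0.04, adjusted p = 1.7e-08, edgeR's test). *Gfap*, the astrocyte intermediate filament, rose from 266 to 282 CPM to 427 to 482 CPM (log2 fold change 0.75) and *Sparcl1* from 1257 to 1325 CPM to 2042 to 2162 CPM (log2 fold change 0.70). *Aldoc*, *Clu* and the glutamate transporter gene *Slc1a3* rose by 0.46, 0.25 and 0.19.

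Other abundant astrocyte genes fell. *Apoe*, which carries lipids between cells, had 5297, 5134 and 4443 CPM with *ACVR1* WT and 3552, 3715 and 3362 CPM with R206H (log2 fold change -0.48, standard error 0.06, adjusted p = 9.0e-05, edgeR's test). *Ndrg2* fell by 0.48, *Fgfr3* by 0.36 and *S100b* by 0.27. Genes listed for reactive astrocytes went mainly up, with 18 of 31 higher (58.1%, against 11.4% of all genes) and 2 lower (median log2 fold change 0.37). Among them *Aspg* rose by 1.58, *Serpina3n* by 0.66, *Cd44*, a hyaluronan receptor gene, by 0.59 and *Vim* by 0.51.

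Progenitor genes also split, 6 of 20 higher and 4 lower. *Egfr*, the receptor for the EGF in the medium, had 450, 504 and 499 CPM with *ACVR1* WT and 286, 326 and 266 CPM with R206H (log2 fold change -0.73, standard error 0.07, adjusted p = 1.0e-05, edgeR's test). *Nes*, whose promoter drives the virus receptor in these mice, fell by 0.26. The matrix gene *Tnc*, tenascin C, rose by 0.83, and the transcription factor genes *Pax6* by 0.59 and *Sox2* by 0.22.

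Of 19 neuronal genes tested, 7 rose and 2 fell, and those with the largest changes were low. *Stmn2* had 0.619, 0.767 and 1.08 CPM with *ACVR1* WT and 6.48, 4.71 and 7.66 CPM with R206H, and *Tubb3* went from 5.56 to 7.01 CPM to 11.1 to 13.2 CPM. The genes of the GABA-synthesizing enzymes moved apart: *Gad2* rose by 0.80 and *Gad1* fell by 0.90. Summed over all 24 genes, the level was 1173 to 1183 CPM of the library total with *ACVR1* WT and 1084 to 1140 with R206H. *Map2*, the most abundant of the neuronal genes called, fell by 0.27.

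Genes of other cell types were also summed, as CPM of the library total. The 14 ependymal and ciliated cell genes had 247 to 263 CPM with *ACVR1* WT and 241 to 251 CPM with R206H, with 1 of 11 tested called higher and 2 lower. The 10 endothelial genes summed to 5.24 to 5.83 CPM with *ACVR1* WT and 6.89 to 9.45 CPM with R206H, and the 13 mural and fibroblast genes to 23.3 to 27.02 and 36.0 to 41.7 CPM. Of those tested, *Kdr* rose by 1.16 among 4 endothelial genes, *P2ry12* by 0.99 among 2 microglial genes, and *Rgs5*, *Col1a2* and *Col1a1* rose among 10 mural and fibroblast genes. *Rgs5*, the most abundant of these 3, was at 8.29 to 10.1 and 15.3 to 22.7 CPM. Their part in the rises of matrix genes below was not tested.

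**Figure D4:**
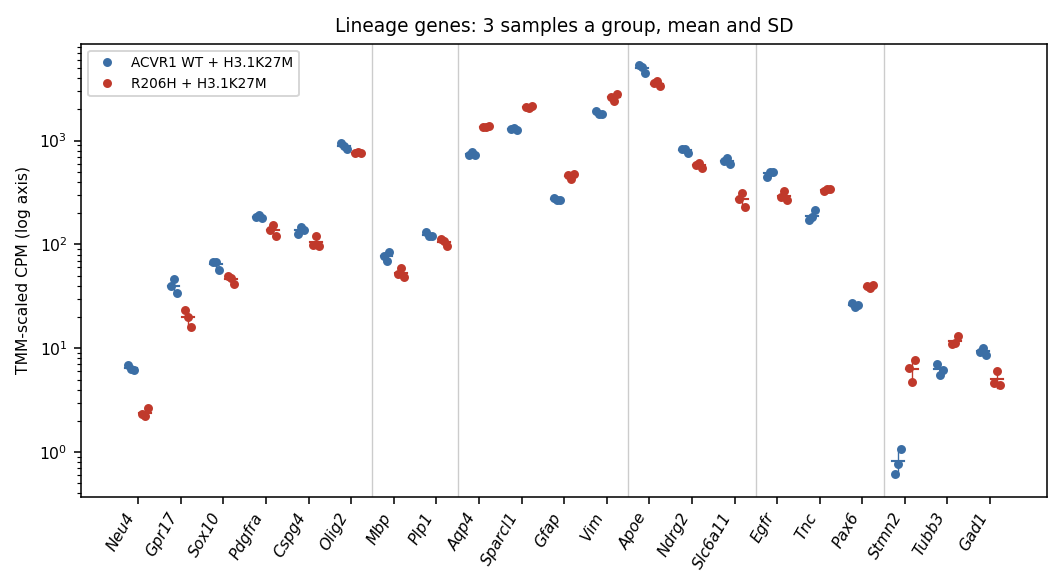
TMM-scaled CPM on a log axis for 21 lineage genes in each sample: precursor and myelin genes, astrocyte and reactive genes that rose, abundant astrocyte genes that fell, progenitor genes and neuronal genes. Blue marks *ACVR1* WT and red R206H, both with H3.1K27M, with the mean and SD (n = 3). Precursor genes lie lower with R206H, while *Aqp4*, *Gfap* and *Apoe* move in opposite ways.

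Cell cycle genes were uniform in direction, though each moved little. Of 50 mitosis and spindle genes, 44 were called lower (88.0%, against 8.95% of all genes) and none higher, with a median log2 fold change of -0.29. Of 50 DNA replication genes, 34 were lower and none higher, with a median of -0.24. *Cdk1*, the mitotic kinase, had 103, 97.5 and 92.6 CPM with *ACVR1* WT and 78.9, 79.8 and 74.9 CPM with R206H (log2 fold change -0.33, standard error 0.05, adjusted p = 0.00045, edgeR's test). The helicase subunit *Mcm6* fell by 0.35, the polymerase clamp *Pcna* by 0.29, the polymerase *Pole* by 0.52 and the topoisomerase *Top2a* by 0.33. *Mki67*, at 159 to 199 and 129 to 182 CPM, did not pass the test.

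Summed over the 50 mitosis genes, the level was 3031 to 3133 CPM of the library total with *ACVR1* WT and 2381 to 2649 with R206H. For the replication genes it was 2688 to 2801 and 2273 to 2359 CPM of the library total, with no overlap in either list. Without R206H replicate 3, the count of mitosis genes called lower was 29, and in the fit of all 12 samples no gene of either list was called. The spread in that fit includes the *ACVR1* WT samples without H3.1K27M, whose mitosis sums were 5522, 1682 and 731 CPM. Among the cyclins that open the cycle, *Ccnd1* fell by 0.27 and *Ccnd2* rose from 1582 to 1743 CPM to 2217 to 2361 CPM (log2 fold change 0.48). The inhibitor gene *Cdkn1c* fell by 0.95, and *Cdkn1a* had 538 to 574 and 545 to 604 CPM and did not pass.

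Matrix genes included a change of a very abundant gene. *Ncan*, which encodes neurocan, a brain chondroitin sulfate proteoglycan, had 2535, 2754 and 2439 CPM with *ACVR1* WT and 5737, 6276 and 6402 CPM with R206H (log2 fold change 1.25, standard error 0.05, adjusted p = 1.3e-08, edgeR's test). *Hapln4*, the gene of a link protein that binds such proteoglycans to hyaluronan, is its neighbor on chromosome 8 and rose by 1.63. Of 33 proteoglycan, tenascin and link protein genes, 12 rose and 5 fell, with *Postn* (1.27) and *Fmod* (0.99) among the rises and the hyaluronan synthase gene *Has2* (-0.73) among the falls.

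Of 35 collagen genes tested, 15 rose and 5 fell (42.9% and 14.3%, against 11.4% and 8.95% of all genes). *Col5a3* went from 47.8 to 50.5 CPM to 85.8 to 103 CPM and *Col4a6* from 49.9 to 55.2 CPM to 91.2 to 98.8 CPM, whereas *Col18a1* fell by 0.51. Annexin genes, whose products bind membranes through calcium, rose in 8 of 10 cases, with *Anxa2* at 0.74 and *Anxa8*, a gene of few reads, at 1.22 on the log2 scale. Serpins, which inhibit proteases, rose in 7 of 13 cases. No annexin or serpin gene fell. Without R206H replicate 3 the counts were 4 for each, and without *ACVR1* WT replicate 2 the annexin count was 5.

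Rises also outnumber falls over all genes (11.4% and 8.95%). Among guidance genes, 10 of 18 Eph receptor and ephrin genes rose (55.6%) and none fell, led by *Epha5*, which had 28.0, 30.6 and 34.0 CPM with *ACVR1* WT and 64.5, 64.7 and 73.6 CPM with R206H (log2 fold change 1.13, standard error 0.07, adjusted p = 5.6e-07, edgeR's test). Of 19 semaphorin genes, 7 rose (36.8%) and 4 fell (21.1%), with *Sema3a* higher by 0.89 and *Sema5a* at -0.76.

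Of 26 Notch pathway genes, 4 rose (15.4%) and 6 fell (23.1%), against 11.4% and 8.95% of all genes. Summed over the list, the level was 1659 to 1690 CPM of the library total with *ACVR1* WT and 1763 to 1838 with R206H. The ligand genes moved in both directions, since *Jag1* rose from 51.0 to 60.2 CPM to 82.5 to 94.2 CPM (log2 fold change 0.69), while *Dll1* fell by 0.59 and *Dll3* by 0.70. *Nrarp*, a target that restrains Notch, fell by 1.19 on the log2 scale and *Mfng*, a glycosyltransferase that modifies Notch, by 1.18. *Notch1*, *Notch3* and *Rbpj* did not pass.

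Of 19 Wnt feedback and antagonist genes, 6 rose and 3 fell (31.6% and 15.8%, against 11.4% and 8.95% of all genes). *Wif1* had 3.05, 3.45 and 2.20 CPM with *ACVR1* WT and 20.8, 20.9 and 25.7 CPM with R206H, and *Notum*, an enzyme that inactivates Wnt proteins, went from 0.330 to 0.559 CPM to 2.31 to 3.03 CPM (log2 fold change 2.64). *Sfrp4* and *Dkk3*, also secreted, rose by 1.01 and 0.80 and the intracellular genes *Tcf7* and *Nkd1* by 0.98 and 0.56, while *Rnf43*, *Frzb* and *Sfrp2* fell by 0.46 to 0.64. The ligand *Wnt5a* fell from 141 to 146 CPM to 79.0 to 93.0 CPM (log2 fold change -0.75), and the receptor gene *Fzd1* rose by 0.74. YAP target genes rose in 7 of 16 cases (43.8%) and fell in none, with *Igfbp3*, which binds insulin-like growth factors, at 362 to 391 and 655 to 877 CPM.

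Channels, transporters and receptors changed in both directions. Of 261 solute carrier genes, 45 rose (17.2%) and 29 fell (11.1%), shares near those over all genes (11.4% and 8.95%). The taurine transporter gene *Slc6a6* had 54.7, 55.9 and 59.9 CPM with *ACVR1* WT and 162, 147 and 175 CPM with R206H (log2 fold change 1.504, standard error 0.06, adjusted p = 1.4e-08, edgeR's test), opposite to its relative *Slc6a11*. Of 64 potassium channel genes, 13 rose and 11 fell, the falls including the glial channel *Kcnj10* (-0.35) and the regulator *Kcnip3* (-0.60). Among 11 GABA receptor genes, 5 subunits of the ion channel rose and both genes of the metabotropic receptor, *Gabbr1* and *Gabbr2*, fell by 0.27 and 0.79. The *Slc* counts were 28 higher without R206H replicate 3 and 13 to 15 lower without that sample, R206H replicate 1 or *ACVR1* WT replicate 2.

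Changes of metabolic and defense genes differed from list to list. Of 37 glutathione and aldehyde genes, 8 rose and 10 fell, with *Gstt1*, a glutathione transferase gene, going from 50.4 to 54.7 CPM to 27.9 to 29.6 CPM. Cholesterol genes rose in 7 of 24 cases (29.2%), by at most 0.30, and none fell. The lipid genes *Scd1* and *Fabp5* rose by 0.50 and 0.37. Of 29 interferon-stimulated genes, 14 rose (48.3%, against 11.4% of all genes) and 2 fell, *Bst2* by 0.67 and *Irf7* by 0.80 among the rises, and of 20 MHC class I and antigen processing genes 10 rose (50%), with *H2-T23* at 0.71. The interferon count was 8 and the MHC count 5 without *ACVR1* WT replicate 2 or R206H replicate 3, and DESeq2 called 6 of the MHC genes.

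Other classes ranged from few calls to many. Zinc finger genes of the *Zfp* series were called in 4.58% of 349 cases against 20.3% overall. Of 33 polycomb and trithorax genes, 4 rose (12.1%, near the 11.4% of all genes) and *Ezh2*, the methyltransferase of H3 lysine 27, fell by 0.26. Cytosolic ribosomal protein genes were called lower in 20 of 78 cases and higher in none, but leaving out 1 sample moved that count between 3 and 32. Of 24 regional transcription factor genes, 11 rose and none fell, among them *Gbx2* (1.29) and *Nkx2-1* (0.80), at 1.28 to 1.39 and 3.79 to 4.50 CPM with *ACVR1* WT. Leaving out *ACVR1* WT replicate 2 brought that count to 6.

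**Figure D5:**
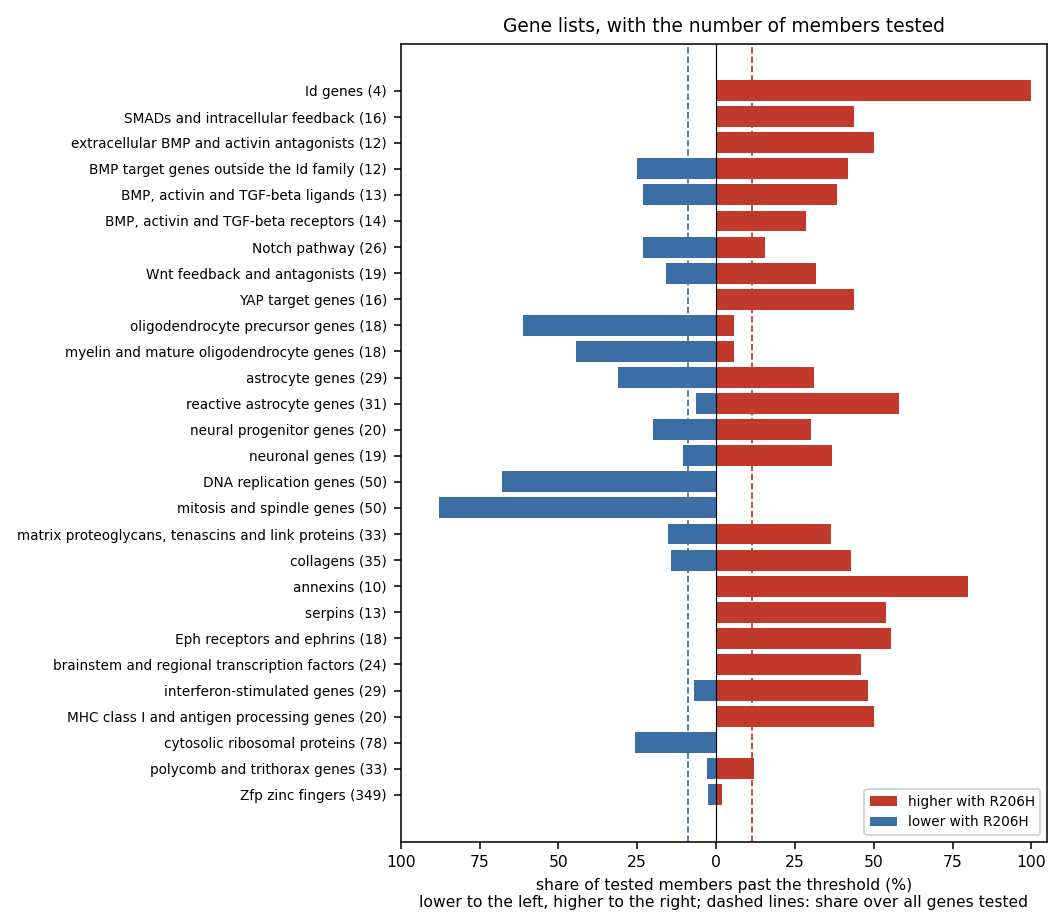
Share of tested members of 28 gene lists and families called higher (red, to the right) or lower (blue, to the left) with R206H among samples with H3.1K27M, in percent, with the number tested in parentheses. Dashed lines mark the shares over all genes, 11.4% higher and 8.95% lower. Mitosis and DNA replication genes extend furthest to the left and *Id* genes and annexins to the right.

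Whether these changes differed from those without H3.1K27M was tested by the R206H by H3.1K27M interaction over 12 samples, which called 11 of 15445 genes (0.0712%), with 1183 at an unadjusted p under 0.05. The rise of *Id3* was larger with H3.1K27M by 2.31 and that of *Id2* by 1.75, as log2 differences (adjusted p = 0.0059 for both, edgeR's test). *Acvr1* reads differed between the backgrounds too. Their means without and with H3.1K27M were 49.9 and 235 CPM of the library total with *ACVR1* WT and 93.8 and 881 with R206H. With *ACVR1* WT, the summed *Id* genes had 252, 353 and 465 CPM of the library total without H3.1K27M and 199, 195 and 197 with it. The amount of the *ACVR1* vector and the H3.1K27M background thus cannot be told apart here. *Adm* fell by more with H3.1K27M (difference -1.18, standard error 0.15, adjusted p = 0.021), with a log2 fold change of -0.06 without it. *Id1* (adjusted p = 0.063) and *Atoh8* (adjusted p = 0.074) did not pass in edgeR but passed under DESeq2, which called 97 genes (adjusted p = 1.5e-06 and 5.3e-06). *Caln1*, *Stum* and *Nog* also passed under DESeq2 alone. A gene that did not pass is not shown to respond alike in the backgrounds. The effect of R206H without H3.1K27M was taken from the same fit of 12 samples. There the 238 genes called higher by at least 1 that this fit tested had a median change of 0.29. Of these, 66.4% were above 0 against 44.6% of all genes, while 5 of 29 genes called lower by at least 1 were above 0. Genes entered by their mean over all 12 samples, and *Caln1* had means of only 0.318 (*ACVR1* WT) and 0.251 CPM (R206H) without H3.1K27M. Over all 1397 genes called lower, 44.8% were above 0 there. Mitosis and replication genes had medians of 0.43 and 0.33 without H3.1K27M, but their sums overlapped there. The mitosis sums with R206H (3904, 3079 and 3816 CPM) lay within the range of the *ACVR1* WT samples (5522, 1682 and 731 CPM), so that no direction is read from them. The *ACVR1* WT samples without H3.1K27M spread widely, as their mitosis sums show, and leaving out replicate 1 of that group brought the interaction count to 4112.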

How the data were processed

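RNAseq of the 12 samples was aligned by the authors as paired-end reads to mm10 with STAR (2.6.0b-1 in the submitters' processing notes) and counted per gene on the Ensembl annotation with HTSeq-count, without strand, in union mode, with a minimum alignment quality of 10 and without reads of several matches. The authors deposited the raw counts of each sample, neither normalized nor pooled, for 54532 genes. Of these, 54495 were found in GENCODE M21, which gave symbols and positions on GRCm38.

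Genes with a mean of at least 10 counts after median-of-ratios scaling were tested on the 6 samples with edgeR 4.0.16 (R 4.3.3), TMM normalization and the quasi-likelihood F test, and calls were made at 0.05 after Benjamini-Hochberg adjustment. For the interaction, the 12 samples shared a fit. The scripts were tested on simulated data with 200 changed genes. CPM of single genes are TMM-scaled unless said otherwise, and levels summed over a list are CPM of the library total. Precision rests on 3 samples a group and 20828944 to 26456257 counts a sample. Mitochondrially encoded genes were at 0 in all libraries.

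The samples were chosen by label. The gene lists and the rule for named genes were chosen with earlier results of these data known, so that list counts are a description. Named were *Acvr1*, *Id1*, *Id3* and *Smad9*, the 15 largest rises and the 15 largest falls among called genes with no overlap between groups, at least 5 CPM in the higher group and no predicted, Rik, pseudogene or clone name, all BMP list and tested marker list members, and, in each other list, up to 5 called members per direction with the smallest p and up to 5 members not called with the highest CPM. *Top2a*, *Postn* and *Anxa8* lie outside this rule and were chosen after their values were seen. Alternatives were DESeq2 1.42.0, its size factors, other filters, the replicate block, all 12 samples in 1 fit, thinned counts and leaving out each sample.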

Additional observations from a re-analysis of the deposited data

Results flagged for a closer look

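The effect of R206H with H3.1K27M differed from its effect without H3.1K27M for 11 genes. Each was called by the interaction term of edgeR's quasi-likelihood test over 12 samples. Reads of the *ACVR1* vector also differed between the backgrounds, and the 2 cannot be told apart. The difference on the log2 scale (effect with minus effect without) was 2.61 for the somatostatin receptor gene *Sstr2*, 2.31 for *Id3*, 1.86 for *Lcat*, which esterifies cholesterol in lipoproteins, 1.75 for *Id2* and 1.65 for *Stk32b*. It was 0.919 for *Cxxc5*, 0.878 for the pentraxin gene *Nptx1*, 0.876 for the heparan sulfate enzyme gene *Hs3st3b1* and 0.485 for *Parvb*. It was negative for *Wnt5a* (-0.854) and *Adm* (-1.18). Adjusted p values ran from 0.0059 for *Id3*, *Id2* and *Stk32b* to 0.048 for *Parvb* and *Wnt5a*. All 9 genes with a positive difference were called higher with R206H among the samples with H3.1K27M, by 0.58 (*Nptx1*) to 2.99 (*Id3*). These samples also enter the difference, so that this is no separate support. Among them *Lcat* went from 13.29, 14.52 and 14.02 CPM with *ACVR1* WT to 67.3, 55.0 and 69.5 CPM with R206H. The difference for *Id2* and *Id3* stayed past the threshold in each alternative fit, and that for *Adm* was lost in 10 of 16.

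Groups of 3 samples are too small for the test of single far samples.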

How the results depend on the processing

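Counts of called genes moved between the settings. Of 516 named genes called, none reversed under the alternatives run. That is no test of stability, since the groups did not overlap in 97.2% of all genes called and a reversal could hardly occur. DESeq2 kept 474 calls, its size factors in edgeR 515, and leaving out 1 of the 6 samples 413 to 480. Fitting all 12 samples together kept 126 of 514, called 440 genes in place of 3185 (352 higher, 88 lower, 80.0% higher in place of 56.0%), and 139 in place of 307 changed by at least 1. That last count was 496 with no filter on low counts and 201 with at least 10 counts in every sample. DESeq2 called 2520 genes in all.

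Leaving out 1 sample gave 1915 to 2966 genes, 1141 to 1660 higher and 774 to 1399 lower, and 205 to 389 changed by at least 1. The lowest total, 1915, came without R206H replicate 3, and 2015 without *ACVR1* WT replicate 2, both with H3.1K27M. The R206H by H3.1K27M interaction, 11 genes, was 97 under DESeq2, 18 with no filter, and 3 to 4112 without 1 sample, 4112 being without replicate 1 of *ACVR1* WT lacking H3.1K27M. The cause of these shifts was not tested.

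The replicate numbers did not pair the samples: deviations of same-numbered samples correlated by 0.0484, 0.117 and -0.0673. With the replicate block 3335 genes were called, of which 3068 were also called in the same direction without it, 306 changed by at least 1, and the interaction called 2.

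With 3 samples against 3, an exact permutation test of a single gene cannot go below 0.1, so calls rest on the spread pooled across genes. Genes under 1 CPM had few calls (96 higher and 22 lower of 1732), with median log2 changes of 1.31 and -1.14 among those called.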
